A study of Mus musculus with 9 samples.

Results

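Malat1, Neat1, Tug1, Pvt1, Dleu2, Kcnq1ot1, Miat and Mir17hg are long noncoding RNAs (lncRNAs) that are known for nuclear or gene-regulatory roles. These 8 genes were found by their NCBI Gene numbers among the 27179 genes counted in a sequencing study of RNA that came down with phosphorylated UPF1 (p-UPF1) in mouse B cells. Of the 8, all except Miat had enough reads to be tested. Tug1 and Pvt1 were higher in the p-UPF1 precipitate than in both controls, by 3.88-fold to 5.94-fold. Malat1, Neat1, Kcnq1ot1, Mir17hg and Dleu2 were lower in it than in both controls, by 1.25-fold to 7.44-fold.

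Long noncoding RNAs are transcribed and often spliced and polyadenylated like messenger RNAs, but hold no long reading frame. Some stay in the nucleus, where Malat1 gathers in nuclear speckles, Neat1 forms the core of paraspeckles and Kcnq1ot1 silences imprinted neighbours in cis, while others serve as precursors of microRNAs. UPF1 is an RNA helicase of nonsense-mediated decay, a pathway of the cytoplasm that removes RNAs whose translation stops upstream of an exon junction, and phosphorylated UPF1 is found on RNAs on which decay factors assemble.

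Splenic B cells of wild-type mice, taken as the CD43-negative fraction, were activated for 72 h with IL-4 (20 ng/mL), anti-IgM (10 ug/mL) and, per the labels, CD40L (5 ug/mL), in place of which the methods list anti-CD40. All 9 libraries share this genotype and treatment, and the methods describe the study's mice as age-matched adults of both sexes. The lysate gave 3 Input libraries, normal rabbit IgG gave 3 IgG libraries as the control for nonspecific precipitation, and the antibody against p-UPF1 gave 3 p-UPF1 libraries. The labels number the libraries of a group without saying whether they came from separate mice or cultures, so the P values measure the spread between these libraries, which may be technical. Libraries held 17372510 to 24945286 reads. Levels are given as counts per 1000000 reads after TMM scaling (CPM), which are shares of a library and do not say how much RNA a precipitate held in all. The 6 B cell markers together stood at 2398 to 3223 CPM, and all 6 passed the filter on low counts. The 5 T cell markers summed to at most 0.917 CPM and 4 erythroid genes to at most 0.0843 CPM. Of the 5 myeloid markers, Adgre1 stood at 57.8 to 131 CPM in the group means, and the other 4 summed to at most 0.852 CPM. Adgre1 was lowest in p-UPF1, and its part in the results was not tested.

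The gene models of the RefSeq annotation on GRCm38, the assembly that mm10 names, divide the members by splicing. Malat1 (chromosome 19, 5795690 to 5802672, minus strand), Kcnq1ot1 (chromosome 7, 143213111 to 143296547, minus strand) and Mir17hg (chromosome 14, 115044390 to 115046728, plus strand) each have a single exon. Neat1 (chromosome 19, 5824708 to 5845480, minus strand) has a short transcript of 3185 bases and a long one of 20771 bases, both unspliced. Tug1 (chromosome 11, 3639785 to 3648814, minus strand) has transcripts of 2 to 4 exons. Pvt1 (chromosome 15, 62037986 to 62260215, plus strand) has 5 to 9 exons over 222230 bases, and Dleu2 (chromosome 14, 61602836 to 61682373, minus strand) and Miat (chromosome 5, 112213228 to 112228948, minus strand) have 7. The GENCODE M21 models differ, with up to 2 exons for Malat1, up to 4 for Neat1 and 2 in the only model of Mir17hg. They also hold 1 transcript of a single exon for Tug1 and 2 for Dleu2.

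The last exon junctions of the 2 lncRNAs that were higher with p-UPF1 are shown because a junction downstream of a stop codon is the classical mark of nonsense-mediated decay. Each line gives 20 bases before and 20 bases after the junction in RefSeq, with the last exon in capitals.
Tug1, transcripts of 3 and 4 exons: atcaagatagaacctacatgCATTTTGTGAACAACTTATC
Tug1, transcript of 2 exons: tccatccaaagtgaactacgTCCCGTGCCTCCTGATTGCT
Pvt1, transcripts of 7 and 9 exons: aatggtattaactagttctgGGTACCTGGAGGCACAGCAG
Pvt1, transcript of 5 exons: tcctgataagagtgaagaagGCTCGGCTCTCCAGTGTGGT

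In 2 of the 3 Tug1 transcripts a junction lies more than 50 bases beyond the end of the longest ATG-to-stop reading frame, which has 76 codons. None of the 3 Pvt1 transcripts has one, with longest frames of 69 to 78 codons. Dleu2 and both Miat transcripts also have such a junction. Among the 423 tested lncRNAs with a curated RefSeq model, the longest transcript has one in 19.1%. By that count Tug1 has none, since its longest transcript, of 6719 bases, is the one without such a junction, while Dleu2 and Miat keep theirs. Whether any of these frames is translated in these cells was not measured.

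The 3′ ends are shown because the labels describe the RNA as polyadenylated and the members are known to end in different ways. Malat1 and the long form of Neat1 are known to be cut by RNase P at an A-rich stretch encoded in the genome rather than given a poly(A) tail. Each line gives the last 60 bases of the RefSeq transcript, with the polyadenylation signal AATAAA in capitals where it occurs, and for the second Malat1 line the 60 bases up to mascRNA, the small RNA cut from the Malat1 end, with the last 20 in capitals.
Tug1: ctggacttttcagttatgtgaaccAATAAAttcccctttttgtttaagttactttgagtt
Pvt1, transcripts of 7 and 9 exons: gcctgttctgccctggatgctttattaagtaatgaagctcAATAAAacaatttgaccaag
Mir17hg: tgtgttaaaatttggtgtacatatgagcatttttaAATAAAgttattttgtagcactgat
Neat1, short: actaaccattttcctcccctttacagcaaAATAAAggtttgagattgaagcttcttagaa
Neat1, long: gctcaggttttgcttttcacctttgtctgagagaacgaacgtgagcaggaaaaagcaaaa
Malat1: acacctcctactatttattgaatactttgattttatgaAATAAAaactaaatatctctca
Malat1, up to mascRNA: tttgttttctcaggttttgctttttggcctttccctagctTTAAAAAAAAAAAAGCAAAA

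AATAAA was searched on the transcript strand and lies in the last 60 bases of the longest transcript of 254 of the 423 tested lncRNAs. It is found both in members that were higher with p-UPF1 and in members that were lower. The long Neat1 and the Kcnq1ot1 ends hold neither AATAAA nor ATTAAA, and the Miat end holds ATTAAA, as do 17.3% of the tested lncRNAs.

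Tug1, a conserved lncRNA found in nucleus and cytoplasm and needed for male fertility, had the highest level of the members in the p-UPF1 precipitate, also per kilobase. It stood at 140.0, 142 and 137 CPM in Input libraries A, B and C, at 105, 121 and 107 CPM in the IgG libraries and at 539.6, 536 and 553 CPM in the p-UPF1 libraries. Every p-UPF1 library was far above every control library, and the IgG libraries lay below the Input libraries. The Log2FC was 2.29 ± 0.05 (SE) over IgG (adjusted P = 2.41e-16) and 1.96 ± 0.05 over Input (adjusted P = 9.60e-16). Between the controls, IgG was lower than Input by 1.25-fold (Log2FC = -0.33, adjusted P = 4.68e-05). Morc2a, the coding gene next to Tug1, was also higher in p-UPF1, with Log2FC of 1.03 over IgG (adjusted P = 8.49e-12) and 1.46 over Input (adjusted P = 8.51e-14).

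Pvt1, transcribed beside the Myc oncogene and known to modulate it, stood at 22.0, 22.5 and 22.5 CPM in Input, at 27.5, 26.9 and 23.7 CPM in IgG and at 132, 132 and 134 CPM in p-UPF1. Every p-UPF1 library was far above every control library, and the IgG libraries lay slightly above the Input libraries. The Log2FC was 2.35 ± 0.06 (SE) over IgG (adjusted P = 6.37e-16) and 2.57 ± 0.06 over Input (adjusted P = 1.95e-16). IgG was 1.17-fold higher than Input (Log2FC = 0.22, adjusted P = 0.00802). Myc, the transcription factor gene upstream, went the other way. Its mean was 120 ± 1.46 CPM (SD, n = 3) in p-UPF1, beside 402 ± 3.26 CPM in Input and 369 ± 12.5 CPM in IgG. Its Log2FC was -1.62 over IgG (adjusted P = 7.55e-16) and -1.75 over Input (adjusted P = 2.55e-16).

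**Figure D1:**
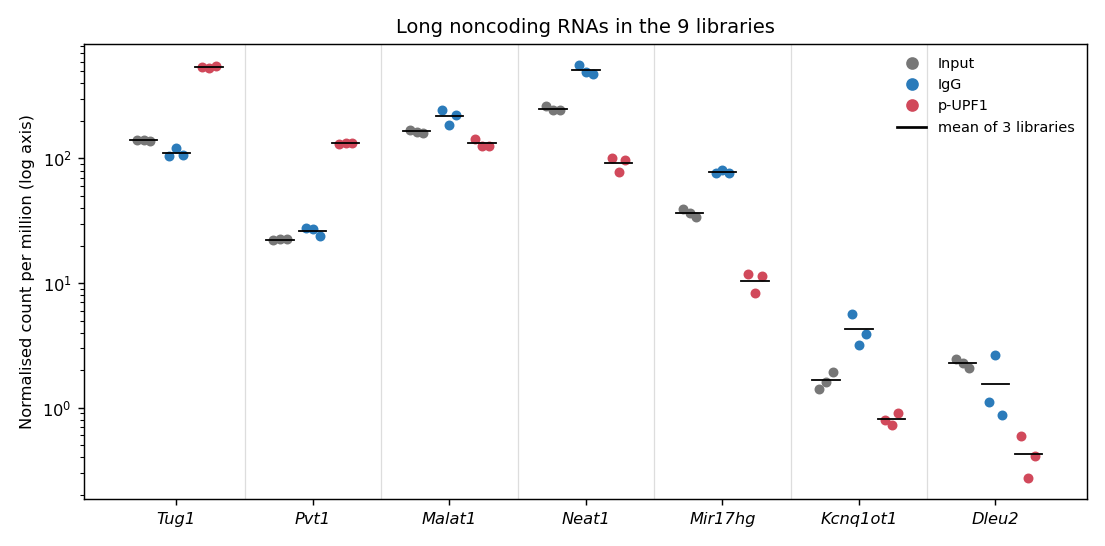
Normalised CPM on a log axis for the 7 tested lncRNAs, with a point for each of the 3 Input, 3 IgG and 3 p-UPF1 libraries and a line at the group mean. The p-UPF1 points lie above both controls for Tug1 and Pvt1 and below both for the other 5, and the IgG points of Dleu2 spread from 0.872 to 2.65 CPM.

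Malat1, an abundant RNA of nuclear speckles that also gives rise to the tRNA-like mascRNA, differed least between p-UPF1 and either control among the tested members. Its levels were 171, 163 and 161 CPM in Input, 245, 184 and 224 CPM in IgG and 144, 127 and 125 CPM in p-UPF1. The groups did not overlap, with IgG highest and p-UPF1 lowest. The Log2FC was -0.72 ± 0.08 (SE) over IgG (adjusted P = 3.50e-07) and -0.32 ± 0.08 over Input (adjusted P = 0.00159). IgG was 1.32-fold higher than Input (adjusted P = 5.30e-04). Frmd8, a coding gene nearby on chromosome 19 that encodes a cofactor of iRhom shedding proteins, was higher in p-UPF1 (Log2FC over IgG = 1.30, adjusted P = 1.01e-13).

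Neat1, the scaffold of paraspeckles, showed the same order with larger gaps. It stood at 265, 246 and 243 CPM in Input, at 566, 496 and 478 CPM in IgG and at 101, 77.2 and 97.7 CPM in p-UPF1. Every IgG library was above every Input library, and every p-UPF1 library was below them all. The Log2FC was -2.48 ± 0.08 (SE) over IgG (adjusted P = 5.36e-14), -1.45 ± 0.08 over Input (adjusted P = 5.02e-11) and 1.03 ± 0.08 for IgG over Input (adjusted P = 3.34e-08). The counts do not separate the short and long transcripts, because the short one lies inside the long one.

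Kcnq1ot1, the antisense RNA that silences genes of the imprinted Kcnq1 domain, was counted with few reads, namely 16 to 20 per p-UPF1 library, 62 to 107 per IgG library and 32 to 38 per Input library. These reads gave 1.42, 1.61 and 1.94 CPM in Input, 5.69, 3.16 and 3.90 CPM in IgG and 0.800, 0.722 and 0.907 CPM in p-UPF1. The order of the groups was that of Neat1, without overlap. The Log2FC was -2.38 ± 0.28 (SE) over IgG (adjusted P = 5.65e-07), -1.02 ± 0.30 over Input (adjusted P = 0.00553) and 1.36 ± 0.25 for IgG over Input (adjusted P = 2.68e-04). Kcnq1 itself, on the opposite strand, held too few reads to be tested. The genes share 125 exonic bases, so reads there cannot be assigned if strand was not used in counting. Cdkn1c, a growth inhibitor gene of the same imprinted domain, gave Log2FC values of -0.70 (adjusted P = 0.130) and -0.66 (adjusted P = 0.150) over IgG and Input.

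Mir17hg is the host transcript of the miR-17-92 cluster, which restrains pro-apoptotic and growth-inhibitory genes and is needed for B cell development. Dleu2 hosts miR-15a and miR-16-1, which act against the cell cycle and survival genes and are lost with this locus in chronic lymphocytic leukaemia. The mature microRNAs that define these hosts are given from RefSeq with their seed, bases 2 to 8, in capitals.
miR-17-5p: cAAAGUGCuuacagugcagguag
miR-20a-5p: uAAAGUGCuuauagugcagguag
miR-18a-5p: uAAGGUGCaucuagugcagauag
miR-19a-3p: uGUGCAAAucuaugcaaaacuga
miR-19b-3p: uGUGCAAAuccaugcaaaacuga
miR-92a-3p: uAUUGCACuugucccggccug
miR-15a-5p: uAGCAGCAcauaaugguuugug
miR-16-5p: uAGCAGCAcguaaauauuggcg

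miR-17-5p and miR-20a-5p share a seed, as do miR-19a-3p and miR-19b-3p, and miR-15a-5p and miR-16-5p. The hairpins of miR-17, miR-18a, miR-19a and miR-20a lie upstream of the RefSeq span of Mir17hg, that of miR-19b overlaps it by 2 bases, and the miR-92a hairpin lies inside it, so the Mir17hg row counts mostly the part of the primary transcript downstream of the cluster if the reads were counted on this model. The 8 hairpins have rows of their own, with 60 reads summed over all of them and all 9 libraries, and no row had more than 10 in any library. The IgG libraries held 45 of these reads, the Input libraries 10 and the p-UPF1 libraries 5, and none of the 8 rows had enough reads to be tested. Mir92-1, Mir15a and Mir16-1 were at 0 in all libraries. The labels name no selection of small RNAs, and the mature forms were not measured here.

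The Mir17hg transcript stood at 39.3, 36.3 and 34.1 CPM in Input, at 76.1, 81.0 and 77.0 CPM in IgG and at 11.7, 8.35 and 11.3 CPM in p-UPF1. The groups were far apart, and the gap between IgG and p-UPF1 was the widest among the members. The Log2FC was -2.90 ± 0.09 (SE) over IgG (adjusted P = 2.34e-14), -1.81 ± 0.10 over Input (adjusted P = 1.94e-11) and 1.09 ± 0.08 for IgG over Input (adjusted P = 1.99e-08).

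Dleu2 held 6 to 14 reads per p-UPF1 library, beside 41 to 61 per Input library and 17 to 52 per IgG library. Its levels were 2.47, 2.27 and 2.09 CPM in Input, 1.12, 2.65 and 0.872 CPM in IgG libraries A, B and C, and 0.590, 0.271 and 0.408 CPM in p-UPF1. All p-UPF1 libraries were below all others, and IgG library B stood above the Input libraries while the other two stood below them. The Log2FC was -1.85 ± 0.44 (SE) over IgG (adjusted P = 0.00108) and -2.41 ± 0.42 over Input (adjusted P = 5.37e-05), and IgG over Input did not pass (Log2FC = -0.56 ± 0.35, adjusted P = 0.197). Without IgG library B, the Log2FC over IgG was -1.20 (adjusted P = 0.00954) and IgG was lower than Input (Log2FC = -1.20, adjusted P = 0.00391). Trim13, an E3 ligase gene that overlaps Dleu2 on the opposite strand without shared exonic bases, was lower in p-UPF1 as well, with Log2FC of -1.75 over IgG (adjusted P = 4.01e-05) and -2.09 over Input (adjusted P = 3.46e-06). If strand was not used, reads of their unspliced RNAs cannot be told apart.

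Miat, a nuclear lncRNA first linked to myocardial infarction, was hardly present. It had 2, 0 and 3 reads in Input, none in IgG, and 0, 1 and 0 in p-UPF1. No fold is given, because the IgG count of 0 allows up to 0.0552 CPM over the group and the p-UPF1 count of 1 lies below the floor of 3 reads, or 0.0421 CPM.

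Per kilobase of exon, the order of the members changed between the groups. In Input the mean levels per kilobase were 23.6 ± 0.727 CPM (SD, n = 3) for Malat1, 20.6 ± 0.343 for Tug1, 15.6 ± 1.11 for Mir17hg, 12.1 ± 0.569 for Neat1, 4.41 ± 0.0536 for Pvt1, 1.34 ± 0.114 for Dleu2 and 0.0199 ± 0.00313 for Kcnq1ot1, and each was apart from the next by more than its spread. In IgG, Mir17hg (33.4 ± 1.11) and Malat1 (31.2 ± 4.42) were highest, and their difference was smaller than the SD of Malat1. In p-UPF1 the order was Tug1 (80.1 ± 1.36), Pvt1 (26.2 ± 0.234) and Malat1 (18.9 ± 1.54), and then Mir17hg (4.47 ± 0.787) and Neat1 (4.42 ± 0.614), which did not differ beyond their spread. Lengths were summed over all RefSeq exons of a gene, which lowers the value of Neat1 and Kcnq1ot1 if only part of these long transcripts was present.

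To be called p-UPF1-bound in the study, an RNA needed an adjusted P below 0.05 in both comparisons, a Log2FC of 2 or more against Input and one of 1 or more against IgG. Of the 8 members, Pvt1 met both limits, against 6.25% of the 13129 genes tested. Tug1 passed the IgG limit and missed the Input limit, at 1.96 against 2. With 4 of 21 other settings (DESeq2's size factors in edgeR, an IgG library as TMM reference, no filter on low counts, and DESeq2) the Tug1 value reached the Input limit, at up to 2.09, and 2 members were bound. Pvt1 was bound in all 21. Taking direction alone, 2 of the 7 tested members were higher in p-UPF1 than in IgG, where 40.4% of all genes were, and 5 were lower, where 42.2% were. The same 2 were higher than Input, beside 40.8% of all genes, and the same 5 lower, beside 42.6%. Calls in either direction were thus common among all genes in these libraries. The median Log2FC over the 7 members was -1.85 over IgG and -1.02 over Input, and over all tested genes it was -0.03 in both. Between the controls, 5 members were higher in IgG than in Input, beside 18.2% of all genes, and Tug1 was lower, beside 34.7%. This split over all genes depends on scaling, and with library size alone 3522 genes were higher and 3175 lower in IgG where TMM gave 2390 and 4560. The 3 comparisons share libraries and are not independent of each other.

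**Figure D2:**
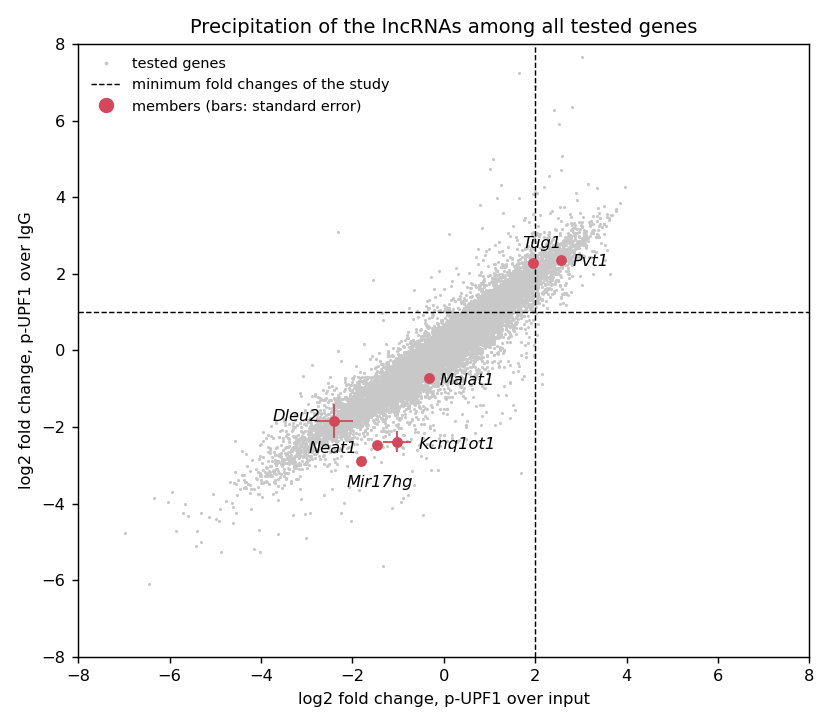
Log2 fold change of p-UPF1 over input (x axis) and over IgG (y axis) for the 13129 tested genes in grey and the 7 tested lncRNAs in red with standard errors, with dashed lines at the minimum fold changes for a bound RNA. Pvt1 lies inside the upper right corner, Tug1 touches its edge at 1.96 over input, and Neat1, Kcnq1ot1 and Mir17hg lie under the main cloud, lower over IgG than over input.

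Among all tested genes, Mir17hg had a lower Log2FC over IgG than all but 1.62%, Neat1 than all but 3.26% and Kcnq1ot1 than all but 3.65%. Pvt1 stood above 95.9% and Tug1 above 95.5%, so both were among the upper genes without being at the extreme. Over Input, Pvt1 ranked 10 and Tug1 39 among the 423 lncRNAs. Malat1 stood above 29.1% of all genes over IgG and above 41.5% over Input.

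The exon number of the models was then set beside these values for the 423 lncRNAs, a grouping chosen after the values of the members were seen. The 68 lncRNAs with a single exon had a median Log2FC of -0.29 over IgG and -0.32 over Input, and 2 of them (2.94%) were bound. The 355 spliced ones had medians of 0.27 and 0.34, and 31 (8.73%) were bound. Without the members, the medians over IgG were -0.25 for 64 single-exon and 0.27 for 352 spliced lncRNAs. All 4 members that are unspliced in RefSeq lay below the single-exon median over IgG, and of these Mir17hg has 2 exons in GENCODE. Both groups were broad, and single-exon lncRNAs were higher in p-UPF1 than in IgG in 22 of 68 cases and lower in 29. Protein-coding genes with a single exon also had lower medians, -0.53 over IgG for 227 genes against 0.02 for 11669 spliced ones. Dleu2, with 7 exons, went against the direction of Tug1 and Pvt1.

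**Figure D3:**
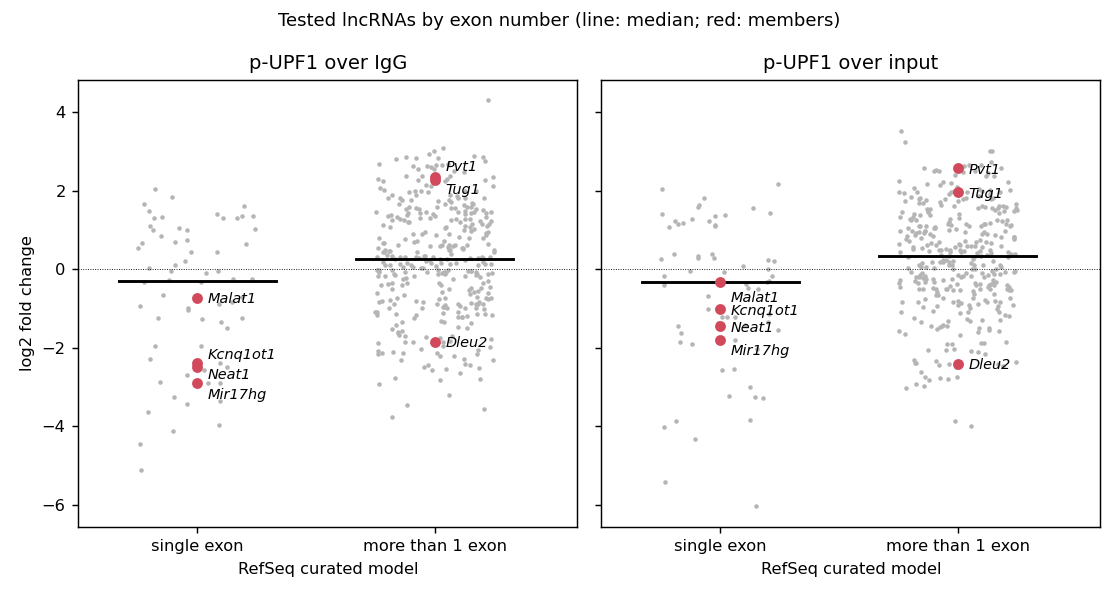
Log2 fold change of p-UPF1 over IgG (left) and over input (right) for the tested lncRNAs with 1 exon (68) or more (355) in their RefSeq models, with a line at each median and the members in red. The medians over IgG are -0.29 and 0.27, and the 4 members with 1 exon lie below the median of their class over IgG, while over input Malat1 lies at it and the other 3 below it.

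To compare members without scaling between libraries, the reads of each were divided by the Malat1 reads of the same library. Malat1 itself was 1.65-fold lower in p-UPF1 than in IgG after TMM scaling. A ratio in p-UPF1 against IgG therefore lies above the member's own fold change, which was 4.88 for Tug1. Tug1 gave 0.820, 0.870 and 0.853 reads per Malat1 read in Input, 0.429, 0.659 and 0.479 in IgG and 3.74, 4.23 and 4.43 in p-UPF1. It was thus the less counted RNA of the pair in every control library and the more counted in every p-UPF1 library. Pvt1 gave 0.105 to 0.146 reads per Malat1 read in the 6 control libraries and 0.913, 1.05 and 1.07 in p-UPF1. Neat1 had more reads than Malat1 in the controls, at 1.51 to 1.55 in Input and 2.13 to 2.69 in IgG, and fewer in p-UPF1, at 0.609 to 0.782. Mir17hg lay between 0.0660 and 0.0907 in p-UPF1, below its Input range (0.212 to 0.230) and its IgG range (0.310 to 0.439). The ratio of p-UPF1 to IgG was 8.03-fold for Tug1 and 8.40-fold for Pvt1, and it was 3.42-fold lower for Neat1, 4.58-fold lower for Mir17hg and 3.11-fold lower for Kcnq1ot1. The exact two-sided permutation test gave P = 0.10 for 15 of 18 such comparisons (adjusted P = 0.12), the smallest value that 3 libraries against 3 allow. The other 3 were Dleu2 in p-UPF1 against IgG (P = 0.20, exact) and Dleu2 and Pvt1 in IgG against Input (P = 0.30 and 0.40, exact). Ratios to Malat1 were not computed for all genes, so this count has no background share. Differences between the groups were common, with 40.4% of all genes higher and 42.2% lower in p-UPF1 than in IgG in the fit.

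**Figure D4:**
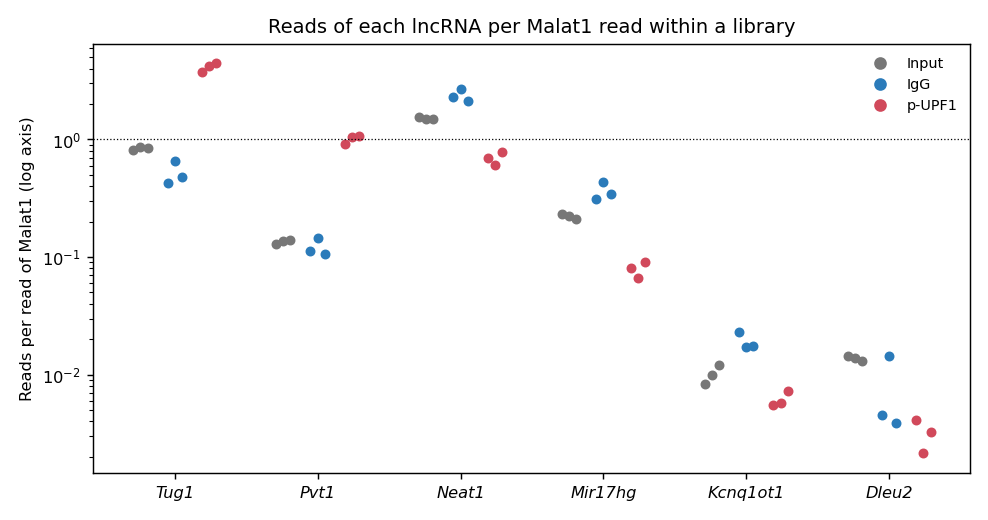
Reads of 6 lncRNAs per read of Malat1 in the same library on a log axis, with a point for each of the 9 libraries and a dotted line where both had equal reads. Tug1 lies below the line in all control libraries and at 3.74 to 4.43 in p-UPF1, and Neat1 lies above it in the controls and at 0.609 to 0.782 in p-UPF1.

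Other lncRNAs were taken from lists of nuclear and imprinted RNAs, of cytoplasmic and immune RNAs and of RNAs with microRNA host or similar names. Of 40 distinct genes, 29 had a row and 13 could be tested. Over IgG, 3 of the 13 were higher, where 40.4% of all genes were, and 6 were lower, where 42.2% were, with a median Log2FC of -0.41. Over Input 4 were higher, beside 40.8% of all genes, and 5 lower, beside 42.6%, with a median of -0.16. The medians over all tested genes were -0.03 in both. One of the 13, Chaserr, which limits expression of the chromatin remodeller gene Chd2, was bound. It stood at 24.7, 24.5 and 23.7 CPM in Input, 26.3, 26.5 and 25.6 CPM in IgG and 132, 134 and 142 CPM in p-UPF1, with Log2FC of 2.38 over IgG (adjusted P = 1.80e-16) and 2.49 over Input (adjusted P = 8.30e-17). Ftx, an activator of Xist from the X inactivation centre, was higher by 0.98 over IgG (adjusted P = 1.07e-09) and 1.23 over Input (adjusted P = 5.07e-11) on the log2 scale.

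Norad, a single-exon RNA of the cytoplasm that binds Pumilio proteins, showed the order of Neat1 and Mir17hg. Its mean was 84.9 ± 1.79 CPM (SD, n = 3) in Input and 295 ± 74.2 CPM in IgG. In p-UPF1 it was 23.5 ± 2.0 CPM, which was 12.6-fold below IgG (adjusted P = 5.16e-13) and 3.62-fold below Input (adjusted P = 5.02e-09). Xist, the nuclear RNA of X inactivation, which is spliced, stood at 184, 75.5 and 124 CPM in the IgG libraries and at 26.7 to 41.3 CPM in the other 6. It was 4.09-fold below IgG in p-UPF1 (adjusted P = 2.06e-07), while its Log2FC over Input was -0.31 (adjusted P = 0.220). The 2 genes tested from the list with microRNA host or similar names differed in direction, and only Mir22hg is named as a host. Mirt1 was higher in p-UPF1, with Log2FC of 0.59 over IgG (adjusted P = 0.00648) and 1.25 over Input (adjusted P = 1.13e-05). Mir22hg was lower in p-UPF1 by 1.98 over IgG on the log2 scale (adjusted P = 4.22e-12), as was Lockd, a lncRNA beside Cdkn1b, with a Log2FC of -2.22 (adjusted P = 4.83e-11). Firre, Trp53cor1, Gnasas1 and Morrbid passed in no comparison with IgG. Of 7 small ribonucleoprotein RNAs listed, only Rn7sk and Rpph1 could be tested, and both were lower in p-UPF1 than in IgG (adjusted P = 2.43e-06 and 1.85e-05) and higher in IgG than in Input (adjusted P = 5.05e-05 and 0.00583). They held few reads, with Rn7sk at 3.27 ± 0.597 CPM (SD, n = 3) in IgG and 0.379 ± 0.321 CPM in Input.

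Among the coding genes next to the members, Morc2a and Frmd8 were higher in p-UPF1 than in IgG, Myc and Trim13 were lower, and Cdkn1c and Dleu7 did not pass. None of these 6 was bound.

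The genes with the profile most like each member were named by the smallest Euclidean distance between centred log2 CPM over the 9 libraries, among 8992 tested genes with a mean of at least 10 CPM. They were Ksr1 (distance 0.0741) and Szrd1 (0.162) for Tug1, Endov (0.159) and Stoml1 (0.163) for Pvt1, and Nfkbiz (0.230) and Kif23 (0.237) for Malat1. Neat1 was nearest to Tnfsf9 (0.400) and to Mir17hg (0.598), and Mir17hg to Neat1 and then Tnfsf9 (0.663). For Kcnq1ot1 they were Fyco1 (0.762) and Lonrf1 (0.817), and for Dleu2 they were Mettl5 (0.987) and Gpr18 (1.02). The distances were largest for Dleu2 and Kcnq1ot1, the members with the fewest reads among those tested.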

How the data were processed

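The deposited values were raw read counts per gene, which the authors made from reads of a directional kit with cutadapt, HISAT2 and featureCounts on mm10 (per the labels' processing notes, without versions). The gene models, strand setting and treatment of multimapping reads of the RIP-seq counting are not given in the sources used here. Columns carry letters and were assigned to groups only. Of 27179 genes, 13129 passed filterByExpr (minimum count 10, minimum total 15) and held 99.9% of the counts. All 9 libraries were fitted together with edgeR 4.0.16 (TMM, quasi-likelihood F test, R 4.3.3), with Benjamini-Hochberg adjustment over all genes tested. The script was tested on simulated data. Counting error understates the true error, since reads without molecular identifiers are not independent molecules. The members and the gene lists were chosen with earlier results of these data known. The genes named are the members, the listed genes, genes overlapping a member and 2 profile neighbours of each. A listed gene is not reported here. Alternatives were other scalings and filters, DESeq2 1.42.0, limma-voom (limma 3.58.1), glmTreat, leaving out each library and, added after seeing the data, the column letter as a block. The labels give no batch.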

Additional observations from a re-analysis of the deposited data

How the results depend on the processing

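Each of the 21 fold changes of the 7 tested members (3 comparisons each) was recomputed under 21 alternatives, 9 of which left out 1 library. No direction reversed, and 440 of the 441 values stayed on the same side of the threshold. The exception was Dleu2 in IgG over Input, which ranged from -1.20 to -0.28 with a library left out and passed without IgG library B. The count of bound members was 2 with DESeq2's size factors in edgeR, with an IgG library as TMM reference, without a filter on low counts and with DESeq2, and 1 in the other alternatives. The number of bound genes was 820, and it was 541 when edgeR's glmTreat tested the fold minimum itself, 825 to 860 with a library left out, and 734 (upper-quartile factors) to 1088 (no filter) under the others. Of the genes called in IgG over Input, 34.4% were higher under TMM. Among other scalings this share was 38.6% with DESeq2's size factors in edgeR, 45.1% with upper-quartile factors, 51.2% with TMM set on an Input library, 51.3% with TMM set on one of IgG and 52.6% with library size alone. It was 38.9% with DESeq2, 48.5% without a filter and 51.1% with these groups alone. The median over all genes moved by up to 0.16 on the log2 scale with scaling. Why these values moved was not tested. The columns carry letters that the labels do not tie to replicate numbers, and the planned block on the number could not be fitted. The letter as a replicate block, chosen after seeing the data, left every member's call as it was, with 822 bound genes and 1 bound member. Deviations from the group means of libraries with the same letter correlated at -0.005 to 0.054 across genes. Those of libraries with different letters correlated at -0.056 to 0.022. These small values do not settle whether the letters pair libraries, and the main fit did not pair them. Dleu2, Kcnq1ot1 and Miat are limited by depth, with at most 107 reads in any library.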
